A study of Mus musculus with 18 samples.

Results

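A set of 10 mouse genes for chemokines, cytokines and an adhesion molecule that recruit, feed or hold leukocytes were followed in sorted islet endocrine cells exposed to interferon gamma (IFNγ) alone. They were Cxcl9, Cxcl10, Cxcl11, Ccl2, Ccl5, Cx3cl1, Csf1, Il15, Il15ra and Icam1, 10 of the 55487 genes in the files, and they were chosen by name. Pancreatic islets of adult male C57BL/6 mice were cultured for 20 h without cytokine or with 5 ng/mL IFNγ, dissociated and sorted by flow cytometry. Epcam+ cells lacking CD45, TER119 and CD31 were sorted with antibodies to CD24, CD71 and CD49f. Alpha cells came from the CD24 low, CD71- fraction, beta cells from the CD24 low, CD71+ fraction and delta cells from within the CD24 high fraction. Each of the 6 groups (alpha, beta or delta cells, control or IFNγ) held 3 RNA-seq libraries, 18 in all, and the labels name no transgene or deletion. The cytokine met whole islets before the cells were parted, so other islet cells were present during the exposure.

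IFNγ signals through its receptor, the kinases JAK1 and JAK2 and transcription factors that bind GAS elements, and it raises factors such as IRF1 that bind interferon-stimulated response elements (ISRE). Many of the genes followed here are also known targets of NF-κB, the factor through which interleukin-1 and tumor necrosis factor act. In an inflamed islet their products draw in T cells and monocytes, keep macrophages alive, present interleukin-15 to T and NK cells and let leukocytes adhere.

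Library totals ran from 6128845 to 11531734 expected counts (median 8697388). The hormone cell markers followed the labels. The summed alpha markers lay between 77300 and 122200 CPM (read counts after TMM normalisation of library totals) in the alpha libraries and reached at most 3269 CPM elsewhere. The beta markers summed to 43670 to 59230 CPM in beta libraries and at most 11510 CPM elsewhere, and the delta markers to 11230 to 37720 CPM in delta libraries and at most 163 CPM elsewhere. Markers of acinar cells were also present, summing to 420 to 2386 CPM in the delta libraries, to 1951 CPM in beta control 1 and 2.59 to 144 CPM in the other beta libraries, and to 4.05 to 41.7 CPM in alpha libraries, and their part in the results was not tested. The IFNγ exposure was visible in every treated library, with Irf1 between 129 and 237 CPM after IFNγ and between 32.9 and 43.9 CPM in controls. One library stood apart for several of the genes described here, the first IFNγ-treated alpha library (alpha IFNγ 1), and results that rest on it are given with and without it.

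By role, the genes fall into chemokines (3 CXCR3 ligands, 2 CC chemokines and the membrane-bound Cx3cl1), a growth factor, a cytokine with its receptor subunit, and an adhesion molecule. Of these 10 genes, 5 passed the filter on low counts and were tested: Cxcl10, Csf1, Il15ra, Cx3cl1 and Icam1. The remaining 5, Cxcl9, Cxcl11, Ccl2, Ccl5 and Il15, stayed near 0 in nearly every library and are described by their counts. A gene that passed only through the group in which it was high had to differ between groups, so the share of tested genes that rose is a description.

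**Figure D1:**
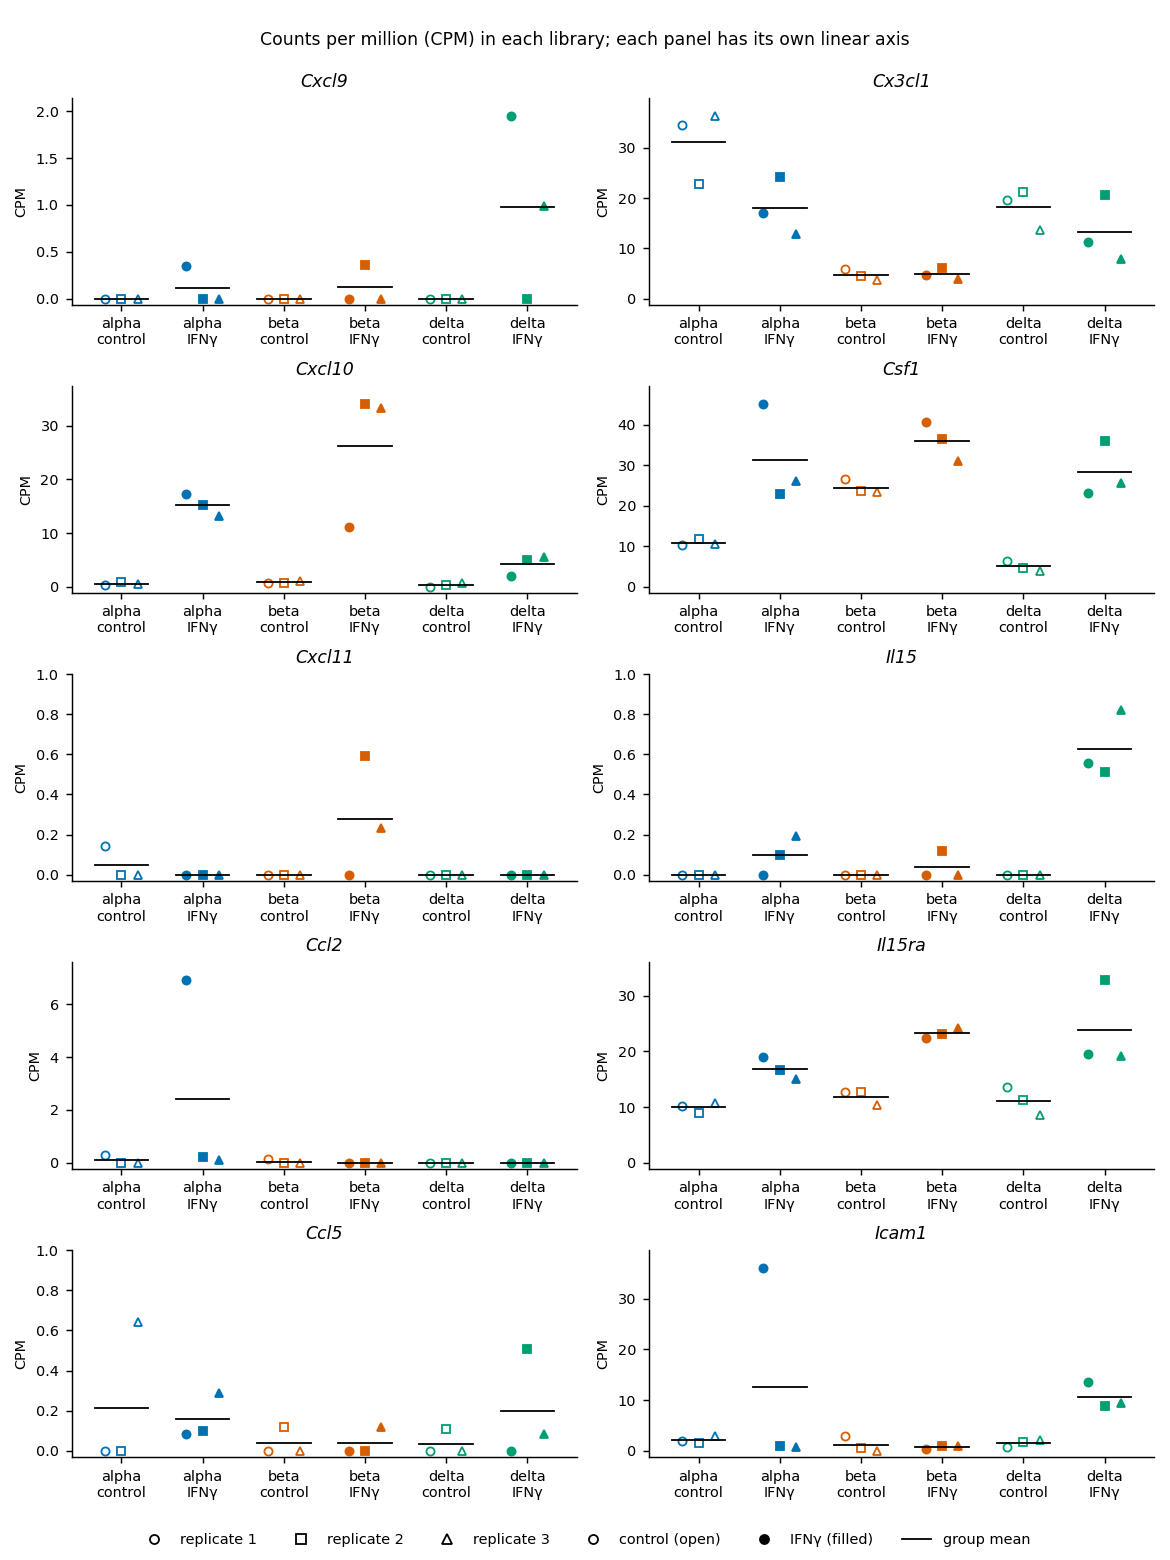
TMM-normalised CPM (y axis, linear, a separate scale in each panel) of the 10 genes in each of the 18 libraries (x axis, 6 groups). Symbols mark replicates, open symbols are controls, filled symbols are IFNγ and bars are group means. Cxcl10, Csf1 and Il15ra lay higher in all 3 IFNγ libraries of each cell type, while Icam1 and Ccl2 in alpha cells were high in 1 IFNγ library.

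Cxcl9, Cxcl10 and Cxcl11 encode the ligands of CXCR3, the receptor through which activated T cells and NK cells are drawn to interferon-exposed tissue. The 3 genes lie side by side on the minus strand of chromosome 5 (GRCm38). Cxcl9 (ENSMUSG00000029417) spans chr5:92321347-92328079, Cxcl10 (ENSMUSG00000034855) chr5:92346638-92348889 and Cxcl11 (ENSMUSG00000060183) chr5:92359544-92365485, together 44139 bases. The annotation lists Cxcl11 as a polymorphic pseudogene, and C57BL/6 mice are known to carry a frameshift in it. Parts of Cxcl10 and Cxcl11 exons overlap genes on the plus strand (Art3 and Gm2673). The strand setting of the counting was not stated, so reads of such pairs may not be told apart, and Art3 reached at most 1.12 CPM and Gm2673 0 CPM.

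Upstream sequence is shown for Cxcl10, for its neighbour Cxcl9, and for Csf1 and Icam1, because these 4 genes show the range from the largest response to counts near 0. RefSeq (GRCm38.p6) promoter entries were found for 6 of the 10 genes: Cxcl9, Cxcl10, Cx3cl1, Csf1, Il15ra (2 starts) and Icam1. Each line gives the 250 bases before the transcription start, 5′ to 3′ on the strand of the gene, with motif matches in capitals: Cxcl10 lies at chr5:92348890-92349139, Cxcl9 at chr5:92328080-92328329, Csf1 at chr3:107760470-107760719 (all minus strand) and Icam1 at chr9:21015690-21015939 (plus strand).
Cxcl10: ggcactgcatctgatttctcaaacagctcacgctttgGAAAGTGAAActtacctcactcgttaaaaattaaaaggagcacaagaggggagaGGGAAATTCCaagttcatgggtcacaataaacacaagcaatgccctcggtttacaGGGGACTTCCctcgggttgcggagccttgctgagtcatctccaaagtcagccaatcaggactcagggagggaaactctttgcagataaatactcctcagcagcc
Cxcl9: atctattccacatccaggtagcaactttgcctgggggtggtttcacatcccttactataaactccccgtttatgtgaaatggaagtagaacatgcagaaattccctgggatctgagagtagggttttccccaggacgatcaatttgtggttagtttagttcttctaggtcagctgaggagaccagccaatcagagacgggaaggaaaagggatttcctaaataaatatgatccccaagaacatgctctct
Csf1: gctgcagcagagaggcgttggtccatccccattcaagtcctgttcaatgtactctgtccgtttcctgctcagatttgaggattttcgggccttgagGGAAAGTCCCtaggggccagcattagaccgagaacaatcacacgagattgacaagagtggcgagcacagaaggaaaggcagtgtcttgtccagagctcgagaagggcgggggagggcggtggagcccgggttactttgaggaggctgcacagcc
Icam1: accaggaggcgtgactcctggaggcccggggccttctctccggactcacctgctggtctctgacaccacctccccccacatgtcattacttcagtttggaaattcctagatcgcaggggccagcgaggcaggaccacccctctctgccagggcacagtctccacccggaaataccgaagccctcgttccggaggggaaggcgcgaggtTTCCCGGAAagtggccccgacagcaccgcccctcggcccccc
Both strands were searched for GAS (TTC, any 3 bases, GAA), ISRE (GAAA, any 2 bases, GAAA) and an NF-κB-type site (GGG, any 3 bases, TTCC), and no matches overlapped. Cxcl10 held GAAAGTGAAA at 213 to 204 bases before the start and NF-κB-type matches GGGAAATTCC at 159 to 150 and GGGGACTTCC at 104 to 95. Csf1 held an NF-κB-type match, GGGACTTTCC, on the opposite strand at 154 to 145 bases, and Icam1 a GAS match, TTCCCGGAA, at 42 to 34 bases. No match stood in these windows of Cxcl9, Cx3cl1 or either Il15ra start. Over all 32851 promoters, windows of the same length held GAS in 7.02%, ISRE in 2.98% and the NF-κB-type motif in 4.65%, and a match is a description of letters, not a binding site.

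**Figure D2:**
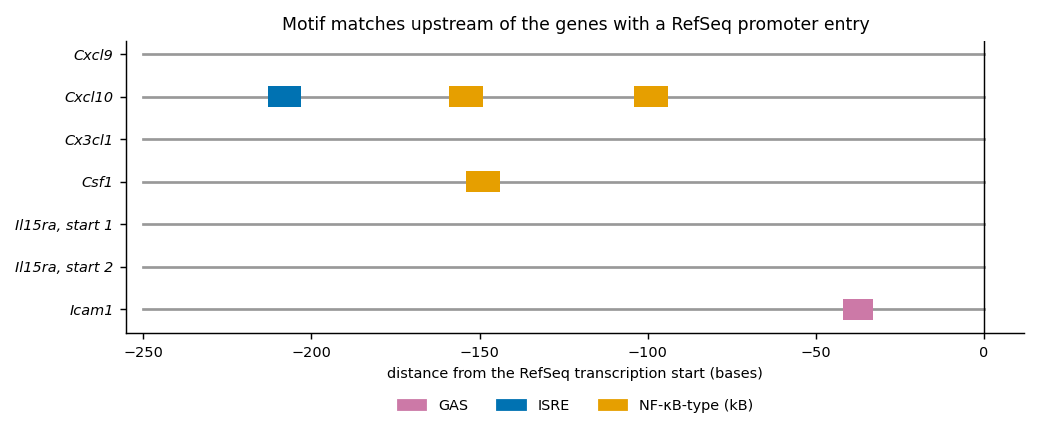
Position of motif matches (coloured boxes) in the 250 bases before the RefSeq transcription start (x axis, distance in bases, 0 at the start) of the 6 genes with an entry, one line for each start. Cxcl10 holds 3 of the 5 matches, Csf1 and Icam1 hold 1 each and the other 4 lines hold none.

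Cxcl10 rose strongly in all 3 cell types from a level close to 0. In alpha cells it stood at 0.291, 0.803 and 0.428 CPM in the controls and at 17.3, 15.2 and 13.3 CPM after IFNγ. In beta cells the controls stood at 0.712, 0.703 and 1.07 CPM and the IFNγ libraries at 11.2, 34.0 and 33.3 CPM. In delta cells the controls stood at 0, 0.324 and 0.623 CPM and the IFNγ libraries at 1.95, 4.97 and 5.49 CPM. Every IFNγ library lay above every control of its cell type, as was so for 9.62% of tested genes in alpha, 6.49% in beta and 7.71% in delta cells. The log2 fold change was 4.88 (SE 0.60, adjusted p = 4.94e-05, edgeR quasi-likelihood test, Benjamini-Hochberg adjusted over 17338 genes) in alpha cells, 4.98 (SE 0.58, adjusted p = 1.7e-05) in beta cells and 3.70 (SE 0.64, adjusted p = 0.0022) in delta cells. These are 29.4-fold, 31.6-fold and 13-fold changes, and the average over the cell types was 4.52 (SE 0.35, adjusted p = 2.46e-08). Of all tested genes, 0.94% rose in alpha, 1.06% in beta, 1.21% in delta cells and 2.23% on average.

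The response of Cxcl10 was not shown to differ between cell types, since the delta response minus the beta response was -1.28 (SE 0.98, adjusted p = 0.884) and minus the alpha response -1.17 (SE 1.00, adjusted p = 0.876). The level reached did differ. IFNγ-treated delta cells, at 4.14 ± 1.91 CPM (SD, n = 3), lay below alpha cells (log2 difference -1.86, SE 0.47, adjusted p = 0.00907, edgeR), which stood at 15.3 ± 2.04 CPM. They lay further below beta cells (log2 difference -2.64, SE 0.48, adjusted p = 0.000371, edgeR), which stood at 26.2 ± 13 CPM, and alpha and beta cells did not pass the test against each other (log2 difference 0.78, SE 0.44, adjusted p = 0.201, edgeR).

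Dates in the deposited file names gave 2 dates on which both treatments of alpha cells and of beta cells were present, and none for delta cells. Within those dates the Cxcl10 difference was 4.90 and 3.71 in alpha cells and 3.60 and 5.20 in beta cells (log2 CPM with a prior count of 2, IFNγ minus control). For delta cells, date and treatment cannot be told apart by pairs on a date. With date as a term, leaning on the dates of the other cell types, the delta change was 1.72 (adjusted p = 0.659, edgeR), and it was 4.17 (adjusted p = 0.0599) by limma-voom and 3.73 (adjusted p = 0.0513) with the delta libraries alone.

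Cxcl9 and Cxcl11, the neighbours of Cxcl10, stayed near 0 with IFNγ alone. Cxcl9 had no count in any of the 9 control libraries, where a group at 0 allows up to 0.102 to 0.136 CPM (3 counts over the group). After IFNγ it had 4 counts over the alpha, 3 over the beta and 26 over the delta libraries. The delta counts gave 1.95, 0 and 0.983 CPM, so that 1 of the 3 IFNγ libraries had none. The sum of these counts was at least 9.34-fold higher than 3 counts over the delta controls. On the deposited TPM scale, which corrects for transcript length, the same libraries stood at 0.32, 0 and 0.13 TPM. Their mean of 0.15 ± 0.161 TPM (SD) lay within the spread of IFNγ-treated beta (0.0967 ± 0.167 TPM) and alpha cells (0.0733 ± 0.127 TPM). Without the filter on low counts, the delta change of Cxcl9 had an adjusted p of 0.0514 and its average over cell types one of 0.0136 (edgeR), with every control at 0. For the average, that fit called 664 genes higher and 458 lower of 32335, against 387 and 116 of 17338 with the filter. Cxcl11 had 1 count in all controls, in an alpha library, and 7 counts after IFNγ, all in 2 beta libraries (0.593 and 0.233 CPM). That beta sum was at least 2.28-fold above 3 counts over the beta controls, and the IFNγ-treated alpha and delta libraries had none.

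Ccl2 and Ccl5, which call monocytes and T cells, likewise stayed near 0. Ccl2 (ENSMUSG00000035385, chr11:82035571-82037453, plus strand) had no count in any delta library and 1 in the beta libraries. In alpha cells it stood at 0.291, 0 and 0 CPM in controls and at 6.90, 0.201 and 0.0967 CPM after IFNγ. All but 3 of its 83 counts in IFNγ-treated alpha cells came from alpha IFNγ 1, and the ratio of the summed counts was 30.8 (95% counting interval 8.27 to 259, Clopper-Pearson, counting error only). Without the filter on low counts Ccl2 had an adjusted p of 0.00755 in alpha cells (edgeR), which rests on that library. In alpha cells that fit called 990 genes higher and 446 lower of 32335, against 163 and 6 of 17338 with the filter. Ccl5 (ENSMUSG00000035042, chr11:83525778-83530518, minus strand) had 8 counts over all controls and 11 over all IFNγ libraries, at most 0.641 CPM in any library. Its ratio of IFNγ to control counts was 0.619 (0.150 to 2.44) in alpha cells and 5.39 (0.603 to 255) in delta cells, so that no difference was detectable at this depth.

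Cx3cl1 (ENSMUSG00000031778, chr8:94772009-94782427, plus strand) encodes fractalkine, a chemokine tethered to the cell membrane that binds CX3CR1 on monocytes. It differed between control cell types, and no change with IFNγ passed the test. Control alpha cells stood at 34.6, 22.9 and 36.3 CPM, control delta cells at 19.6, 21.3 and 13.7 CPM and control beta cells at 5.84, 4.57 and 3.65 CPM, with no overlap between any pair of cell types. How many of all tested genes lie apart in this way between control cell types was not counted. Beta controls lay below alpha controls by a log2 difference of -2.73 (SE 0.36, adjusted p = 2.1e-05, edgeR) and delta controls above beta controls by 1.95 (SE 0.35, adjusted p = 0.000435, edgeR). Delta against alpha controls did not pass (-0.78, SE 0.32, adjusted p = 0.0956, edgeR). Between control cell types 19.7% of tested genes differed for beta against alpha, 19.7% for delta against alpha and 20.5% for delta against beta.

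After IFNγ, Cx3cl1 stood at 17, 24.2 and 13 CPM in alpha, 11.3, 20.6 and 7.87 CPM in delta and 4.62, 6.05 and 3.96 CPM in beta cells, each range overlapping its controls. The change was -0.79 (SE 0.32, adjusted p = 0.181) in alpha, -0.46 (SE 0.33, adjusted p = 0.607) in delta and 0.06 (SE 0.37, adjusted p = 1) in beta cells by edgeR. Without alpha IFNγ 2 the alpha change was -1.06 and passed (adjusted p = 0.0393), in a fit that called 1798 genes higher and 1959 lower of 18038, against 163 higher and 6 lower of 17338 with it. That fit compares the controls with alpha IFNγ 1 and 3, which differed from them in base composition. The median of the genes lowest in GC content minus that of the highest (3463 genes each, log2) was 1.08 and 0.90 in those libraries, -0.59 in alpha IFNγ 2 and -0.51 to -0.81 in the alpha controls. By the same measure the delta controls stood at -0.09, -0.05 and 0.89 and the IFNγ-treated delta libraries at 0.87, 0.51 and 0.93. The IFNγ-treated beta libraries stood at -0.72, -0.41 and -0.41, apart from those of delta cells. Cx3cl1 transcripts, at 57.9% GC, stood at the 90.9th percentile of tested genes. The part of base composition in this and in the other differences between groups was not tested. Among IFNγ-treated cells beta again lay below alpha (-1.88, SE 0.35, adjusted p = 0.000588, edgeR) and delta above beta (1.43, SE 0.35, adjusted p = 0.00414, edgeR; adjusted p = 0.196 with date as a term), beside 27.1% and 36.4% of all tested genes that differed in those 2 comparisons and 16% for delta against alpha.

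Csf1 (ENSMUSG00000014599, chr3:107741048-107760469, minus strand) encodes the growth factor that maintains macrophages through CSF1R. It rose in alpha and delta cells, and its levels, apart between the control cell types, overlapped after IFNγ. Control levels were 26.6, 23.5 and 23.3 CPM in beta, 10.3, 11.8 and 10.5 CPM in alpha and 6.39, 4.65 and 3.95 CPM in delta cells. These did not overlap, which was not counted over all genes, and each pair passed the edgeR test. The log2 difference was 1.17 (SE 0.26, adjusted p = 0.0028) for beta minus alpha, -1.11 (SE 0.27, adjusted p = 0.0062) for delta minus alpha and -2.29 (SE 0.27, adjusted p = 4.25e-06) for delta minus beta.

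After IFNγ, Csf1 stood at 45.1, 23 and 26 CPM in alpha, 40.7, 36.5 and 31.1 CPM in beta and 23.2, 35.9 and 25.7 CPM in delta cells. All IFNγ libraries lay above their controls, in beta cells by the smallest margin. This was so for 9.62% of tested genes in alpha, 6.49% in beta and 7.71% in delta cells. The log2 fold change was 2.49 (SE 0.27, adjusted p = 5.92e-06) in delta, 1.53 (SE 0.26, adjusted p = 0.00179) in alpha and 0.56 (SE 0.25, adjusted p = 1, unadjusted p = 0.0362) in beta cells by edgeR, or 5.63-fold, 2.89-fold and 1.47-fold. No pair of IFNγ-treated cell types differed by the test (log2 differences -0.35 to 0.20, adjusted p from 0.273 to 0.76, edgeR).

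Csf1 also had the smallest p among these genes for a response that differs between cell types. Its delta response exceeded its beta response by 1.93 on the log2 scale (SE 0.36, unadjusted p = 3.93e-05), but with adjusted p = 0.681 over all genes by edgeR it did not pass. The same difference passed by DESeq2 (1.99, adjusted p = 0.00313) and without the filter on low counts (1.96, adjusted p = 0.000297). The beta response minus the alpha response was -0.97 (SE 0.35, adjusted p = 0.369), and it passed only without alpha IFNγ 2 (-1.16, adjusted p = 0.047). By edgeR 0% of genes passed any of the 3 comparisons of responses, while an unadjusted p under 0.05 was found for 2305 genes (beta minus alpha), 783 (delta minus alpha) and 822 (delta minus beta).

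Within the 2 shared dates the Csf1 difference was 1.14 and 1.13 in alpha cells and 0.61 and 0.63 in beta cells (log2 CPM, IFNγ minus control). In alpha cells the value was 1.18 (adjusted p = 0.0131) without alpha IFNγ 1, and with the alpha libraries alone it was 1.52 with adjusted p = 0.0501. In delta cells, with date as a term, it was 1.67 (adjusted p = 0.157, edgeR).

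**Figure D3:**
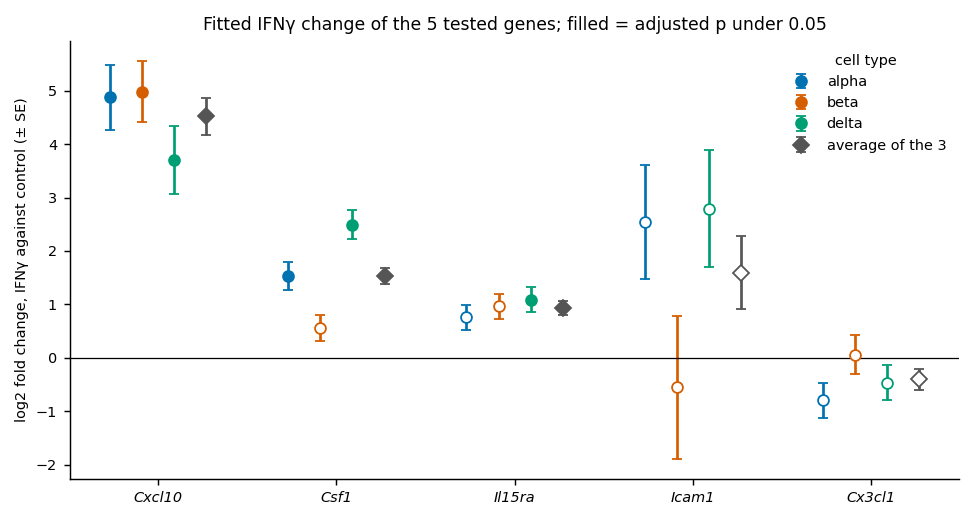
Fitted log2 fold change of IFNγ against control (y axis, error bars are the standard error of the edgeR fit) for the 5 tested genes, in alpha, beta and delta cells (circles) and averaged over them (diamonds), with filled symbols at adjusted p under 0.05. Cxcl10 is filled throughout, Csf1 runs from 0.56 in beta to 2.49 in delta cells, Il15ra lies between 0.76 and 1.09, and the Icam1 bars are wide.

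Il15 and Il15ra encode interleukin-15, a survival factor for NK and memory CD8+ T cells, and the receptor subunit that holds it on the surface of the presenting cell. The pair was split in these data: the receptor gene was present in every library and the ligand gene was near 0. Il15ra (ENSMUSG00000023206, chr2:11705290-11734317, plus strand) stood at 10.2, 8.97 and 10.8 CPM in alpha controls and 19.1, 16.6 and 15 CPM after IFNγ. In beta cells the controls were 12.7, 12.6 and 10.4 CPM and the IFNγ libraries 22.4, 23.1 and 24.2 CPM. In delta cells the controls were 13.6, 11.4 and 8.51 CPM and the IFNγ libraries 19.5, 32.7 and 19.2 CPM. Each IFNγ range lay above its controls, as for 9.62% of tested genes in alpha, 6.49% in beta and 7.71% in delta cells. The controls of the 3 cell types overlapped each other.

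The Il15ra change was of similar size in each cell type, 0.76 (SE 0.23, adjusted p = 0.14) in alpha, 0.97 (SE 0.23, adjusted p = 0.0546) in beta and 1.09 (SE 0.23, adjusted p = 0.015) in delta cells by edgeR. On average over the cell types it was 0.94 (SE 0.13, adjusted p = 0.000143, edgeR), a 1.92-fold rise. The delta call was lost without delta control 2 (adjusted p = 0.0719), delta control 3 (0.0894) or delta IFNγ 2 (0.117), with the delta libraries alone (adjusted p = 0.125) and with date as a term (0.89, adjusted p = 0.564). The beta change passed by DESeq2 (adjusted p = 0.0204), with beta libraries alone (adjusted p = 0.0207) and without delta control 3 (adjusted p = 0.0381), delta IFNγ 2 (0.0177) or delta IFNγ 3 (0.047). The alpha change passed without alpha IFNγ 2 (0.77, adjusted p = 0.0399), where calls over all genes rose as given for Cx3cl1. Within the 2 shared dates the difference was 0.70 and 0.73 in alpha and 0.81 and 0.86 in beta cells (log2 CPM, IFNγ minus control).

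Il15 (ENSMUSG00000031712, chr8:82331632-82403222, minus strand) had no count in any control library. After IFNγ it had 3 counts over the alpha libraries, 1 over the beta libraries and 18 over the delta libraries. The delta libraries stood at 0.557, 0.510 and 0.820 CPM, at least 6.47-fold above 3 counts over the delta controls, and each of them held Il15 counts. Without the filter on low counts this change did not pass (adjusted p = 0.167, edgeR).

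Icam1 (ENSMUSG00000037405, chr9:21015985-21028817, plus strand) encodes the adhesion molecule that leukocytes grip through the integrin LFA-1. It rose in no cell type by the test, and its values were uneven. Delta cells stood at 0.763, 1.73 and 2.08 CPM in controls and at 13.6, 8.79 and 9.42 CPM after IFNγ. All 3 IFNγ libraries lay above the controls, as for 7.71% of tested genes in delta cells. The delta change was 2.79 (SE 1.09, adjusted p = 0.318, edgeR), and it passed with the delta libraries alone (2.83, adjusted p = 0.0038), without the filter on low counts (adjusted p = 1.62e-07) and without alpha IFNγ 1 (2.79, adjusted p = 0.0451). In delta cells the fit without the filter called 415 genes higher and 177 lower of 32335, against 209 and 32 of 17338 with it. With date as a term the delta change of Icam1 was -3.13 (adjusted p = 0.374, edgeR). In beta cells Icam1 stood at 2.99, 0.468 and 0 CPM in controls and 0.355, 0.948 and 0.933 CPM after IFNγ (-0.55, SE 1.34, adjusted p = 1, edgeR), with overlapping groups. The annotated gene Gm47079 overlaps part of the Icam1 exons on the other strand and reached at most 1.90 CPM.

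In alpha cells Icam1 stood at 1.89, 1.61 and 2.89 CPM in controls and at 36.0, 0.902 and 0.677 CPM after IFNγ. One library lay above and the other two below every control. The fitted change of 2.54 (SE 1.06, adjusted p = 0.189, edgeR) reversed to -1.42 (adjusted p = 0.631) without alpha IFNγ 1, and within the 2 shared dates, which do not hold that library, the difference was -0.90 and -1.02. It passed without alpha IFNγ 2 (3.09, adjusted p = 0.0324) and without the filter on low counts (adjusted p = 1.85e-06) by edgeR. Calls over all genes rose in both of these fits, as given for Cx3cl1 and Ccl2. The IFNγ-treated beta cells lay below alpha cells (-3.99, SE 1.20, adjusted p = 0.019, edgeR), and that difference was -0.03 (adjusted p = 0.989) without alpha IFNγ 1. The call was also lost without beta IFNγ 1 (adjusted p = 0.0729), 2 (0.0569) or 3 (0.0588). IFNγ-treated delta cells lay above beta cells by 3.75 (SE 1.20, adjusted p = 0.0204, edgeR), 3.75 (adjusted p = 0.000846) without alpha IFNγ 1. This call was lost without beta IFNγ 1 (3.47, adjusted p = 0.074), beta IFNγ 2 (0.0573), beta IFNγ 3 (0.0558) or delta IFNγ 1 (0.0507).

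The library alpha IFNγ 1 was high for several genes of this kind at once. Beside Icam1 and Ccl2 it held Cxcl1, a neutrophil chemokine gene named here after its values were seen, at 39.5 CPM against 0.501 and 0 CPM in the other IFNγ-treated alpha libraries and 0.669 to 1.5 CPM in controls. Csf1 was also highest there (45.1 CPM), while its Cxcl10 (17.3 CPM) and Il15ra (19.1 CPM) lay near the other libraries of the group. Its immune (3.967 CPM) and endothelial (4.225 CPM) marker sums lay above those of alpha IFNγ 3. They lay below those of alpha IFNγ 2 and of the alpha controls. The 18 immune markers summed to 3.77 to 4.31 CPM in the IFNγ-treated alpha libraries and 5.23 to 7.27 CPM in alpha controls, and the 9 endothelial markers to 2.42 to 4.51 and 5.09 to 6.63 CPM. Over the alpha libraries C1qa (1.87 to 5.34 CPM) and Esam (1.35 to 4.81 CPM) were the largest single parts of the immune and endothelial sums. Ptprc, which encodes CD45, was at 0 in all 3 IFNγ-treated alpha libraries. Pecam1, which encodes CD31, was highest in alpha IFNγ 1 at 0.949 CPM. It stood at 0.201 and 0.580 CPM in the other IFNγ-treated alpha libraries and 0.107 to 0.803 CPM in alpha controls. Its 7 duct markers summed to 1423 CPM, the highest of the 18 libraries, against 908 and 776 CPM in the other IFNγ-treated alpha libraries and 839 to 1298 CPM in alpha controls. Its mesenchymal (4.31 CPM) and acinar (4.05 CPM) sums were the lowest of the alpha libraries. The part of duct, immune or endothelial cells in its values was not tested.

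**Figure D4:**
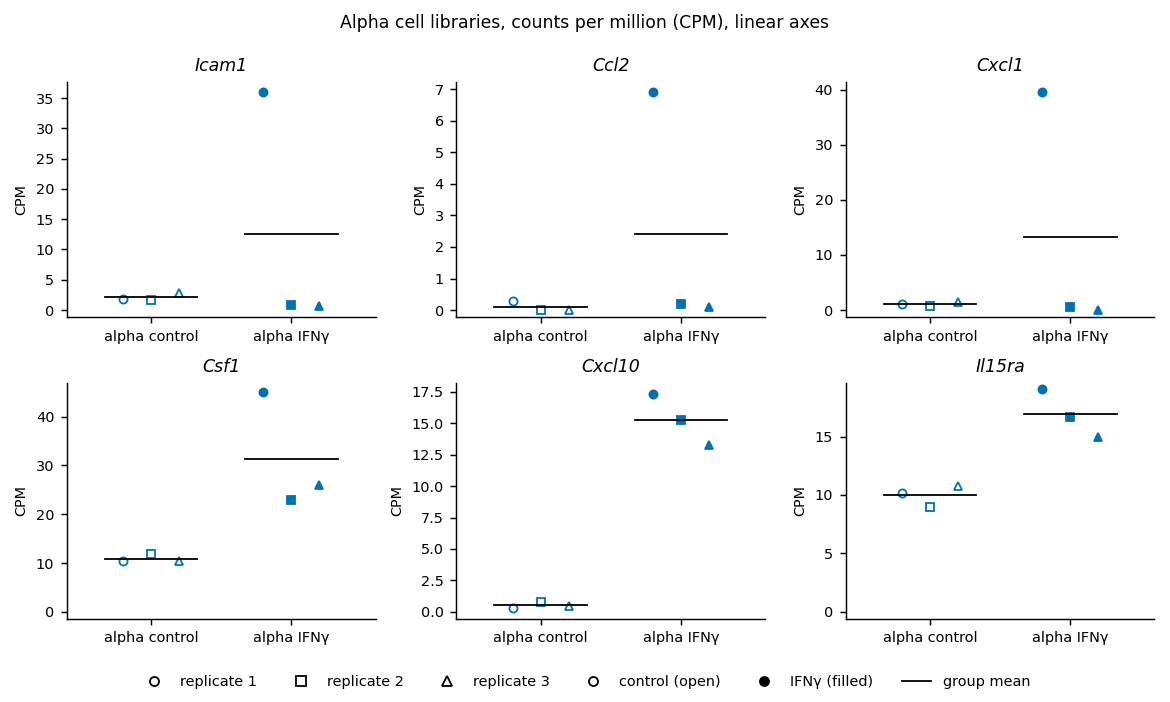
CPM (y axis, linear) of 6 genes in the 3 control and 3 IFNγ alpha libraries, with symbols for replicates and bars for group means. Alpha IFNγ 1 (filled circle) is far above the rest for Icam1, Ccl2 and Cxcl1 and highest for Csf1, and lies close to the other IFNγ libraries for Cxcl10 and Il15ra.

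In delta cells, the 18 immune markers summed to 7.66 to 15.2 CPM after IFNγ and 7.89 to 16.3 CPM in controls, and the 9 endothelial markers to 6.64 to 9.33 and 4.78 to 6.87 CPM. Single endothelial markers did not move together. Pecam1, which encodes CD31, stood at 3.62, 2.68 and 2.05 CPM after IFNγ and 0.477, 0.865 and 1.45 CPM in delta controls. Esam stood at 2.64, 3.06 and 2.38 CPM after IFNγ and 5.34, 4.97 and 1.87 CPM in delta controls. Tek stood at 0.974, 1.27 and 2.13 CPM after IFNγ and 1.05, 0.324 and 0.727 CPM in delta controls. Among the IFNγ-treated delta libraries, Cdh5, Kdr, Plvap and Vwf had counts only in delta IFNγ 1. Of the endothelial markers 1 was at 0 in the IFNγ-treated delta group and 2 in the delta controls, and of the immune markers 7 and 6. The part of these cells in the delta values of Icam1, Il15 and Cxcl9 was not tested, and fewer cells of a type and less RNA per cell cannot be told apart in sorted bulk samples. In beta cells the immune markers summed to 7.35 to 8.86 CPM after IFNγ and 5.78 to 7.55 CPM in controls, with 13 of 18 at 0 in each group.

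Levels of different genes were compared on the deposited TPM scale, which corrects for transcript length and sums to the same total in each library. In beta cells after IFNγ Cxcl10 was highest at 16.8 ± 8.13 TPM (SD, n = 3), followed by Il15ra at 9.78 ± 1.71 and Csf1 at 8.43 ± 0.351 TPM, and these neighbours lay within each other's spread. In alpha cells after IFNγ Cxcl10 (7.63 ± 2.42 TPM), Csf1 (6.84 ± 1.72 TPM) and Il15ra (5.45 ± 1.72 TPM) did not differ beyond their spread. In delta cells after IFNγ Il15ra (8.12 ± 5.48 TPM) and Csf1 (5.37 ± 1.51 TPM) led, and Cxcl10 (1.94 ± 0.899 TPM), Icam1 (2.12 ± 0.641 TPM) and Cx3cl1 (2.41 ± 1.13 TPM) formed a lower group. In controls the leading gene was Cx3cl1 in alpha cells (8.87 ± 2.59 TPM), Csf1 in beta cells (4.69 ± 0.817 TPM, with Il15ra at 4.38 ± 1.12) and Il15ra in delta cells (3.85 ± 0.671 TPM, with Cx3cl1 at 3.78 ± 0.247). On this scale the alpha libraries of Il15ra overlapped between treatments (4.92 ± 1.85 TPM in controls and 5.45 ± 1.72 after IFNγ), unlike their CPM. Its delta libraries overlapped too, at 3.81, 4.54 and 3.20 TPM in controls and 5.41, 14.4 and 4.53 TPM after IFNγ. The 5 genes that failed the filter reached group means of at most 1.67 TPM, for Ccl2 in IFNγ-treated alpha cells with 4.75 TPM in alpha IFNγ 1.

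**Figure D5:**
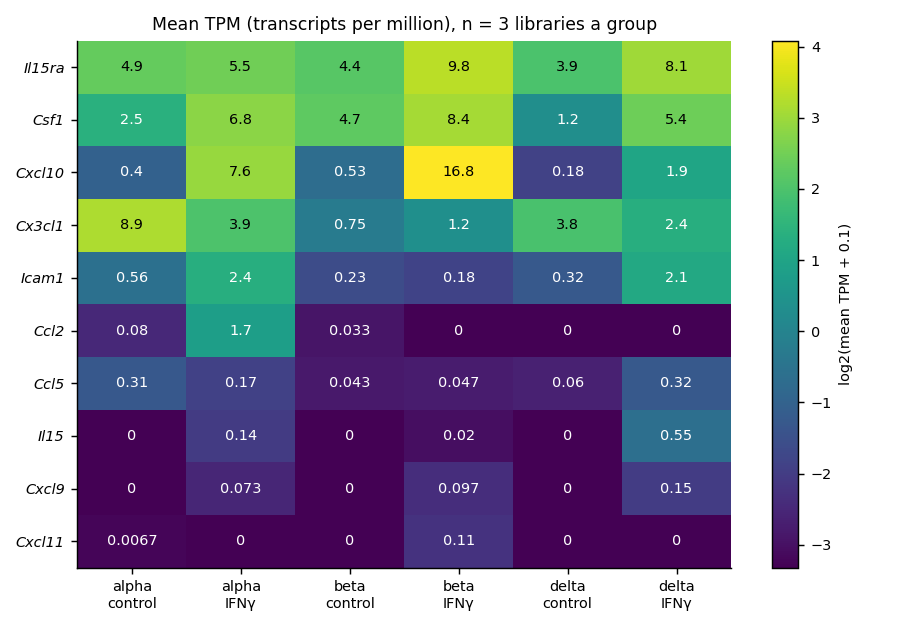
Mean TPM of the 10 genes (rows) in the 6 groups (columns, n = 3 libraries each); the number in each cell is the mean and the colour is log2(mean TPM + 0.1). Cxcl10 in IFNγ-treated beta cells has the highest mean, 16.8 TPM, and the lowest rows (Ccl2, Ccl5, Il15, Cxcl9 and Cxcl11) are at or near 0 in most groups.

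Among other genes of these pathways, listed by name, most calls were in the signalling genes. A list of 11 signalling genes held the NF-κB genes Nfkb1, Rela and Nfkbia beside genes of the IFNγ pathway. Of these 11, all tested, 3 rose in alpha, 4 in beta and 5 in delta cells and none fell. None of the NF-κB genes was called. The medians of the whole list were 0.61, 0.35 and 0.12, beside -0.01, 0.00 and -0.05 over all tested genes. Irf1 rose by 1.88, 2.32 and 2.27 on the log2 scale in alpha, beta and delta cells, and Stat2 and Irf9 also rose in each cell type. Socs1, the feedback inhibitor, rose in beta (3.82) and delta cells (4.57), and Jak2 in delta cells (0.89). Of 31 other chemokine ligands only Ccl25, Ccl27a, Ccl28, Cxcl12 and Cxcl16 passed the filter, and 0 of them were called in any cell type or on average by edgeR (adjusted p = 0.191 for Ccl25 on average).

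Of 21 other cytokine and growth factor genes, 7 were tested and 1 was called, on average over the cell types only. This was Il7, a lymphocyte survival factor (1.65, SE 0.38, adjusted p = 0.0191, edgeR), at 2.09 ± 0.339 CPM in delta controls and 5.95 ± 0.649 CPM in IFNγ-treated delta cells. Of 13 other adhesion genes, 7 were tested and 1 was called, again on average, Cd47 (0.57, SE 0.14, adjusted p = 0.0269, edgeR). The receptors through which the 10 gene products act on leukocytes were near 0. Of 14 receptor genes 1 passed the filter, Ccr3 (2.33 CPM in alpha controls), and it was not called. The other 13 had group means of at most 0.892 CPM, and Cxcr3 had no count in any library.

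The tested genes with the most similar pattern over the 18 libraries were found by the smallest root mean square difference of gene-centred log2 CPM (prior count 2). Cxcl10 was nearest to Gbp5 (1.00), beside its own standard deviation of 2.30. Il15ra was nearest to Pml (0.285) and Idnk (0.297), with a standard deviation of 0.546, and Cx3cl1 to Samd14 (0.320) and Npr2 (0.323), with 1.08. Csf1 was nearest to Snx10 (0.605) and Serpina10 (0.622), with 1.05. Icam1 had no close neighbour, with Xist (1.00) and Cd14 (1.02) nearest beside a standard deviation of 1.80.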

How the data were processed

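Libraries of sorted cells were made with a random-primed, strand-specific kit with ribosomal depletion. The authors aligned reads with STAR 2.5.2b and made RSEM gene files on GRCm38 (neither the RSEM version nor its strand setting is stated). The deposited files hold expected counts, which need not be whole, and TPM values, which are corrected for transcript length and scaled to a common total by the authors; effective lengths were not used. Gene symbols came from GENCODE for 99.53% of 55487 identifiers.

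Here expected counts were rounded and fitted with edgeR 4.0.16 (R 4.3.3): TMM factors, genes of at least 10 counts by filterByExpr (17338 genes), a quasi-likelihood fit over all 18 libraries with the 6 groups, 13 contrasts, and Benjamini-Hochberg adjustment with a threshold of 0.05. The study's model had a batch term; dates stand only in file names (9 dates, 5 with 1 library), so date was an alternative. CPM are rounded counts over TMM-scaled totals. A floor of 3 counts over a group was 0.0940 to 0.136 CPM. Intervals cover counting error only. The study describes the libraries of a group as independent biological samples.

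Each of the 10 genes was named. Each list is given by its counts, with the called members that reached a group mean of 5 CPM, and for each gene of at least 5 CPM the 2 most alike genes. Some items of the lists and of the most alike genes are not reported here. The genes and lists were chosen with earlier results of these data known. Same-numbered control and IFNγ libraries did not deviate together in every pair (correlation over 0.1 in 5 of 9), so the fit has no replicate block. DESeq2 1.42.0, limma-voom (limma 3.58.1), RLE size factors, no filter, single cell types, date terms, replicate blocks and leaving out each library were tried. The scripts were tested on simulated data.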

Additional observations from a re-analysis of the deposited data

How the results depend on the processing

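Cxcl10 in alpha and beta cells, and the averages of Cxcl10, Csf1 and Il15ra, kept their direction and their side of the threshold under every alternative reported. A replicate block common to all cell types was also fitted and is not reported here. The number of these genes called was 2 in alpha cells, 4 without the filter on low counts, 1 with the alpha libraries alone, and 2 to 5 when 1 library was left out (5 without alpha IFNγ 2, where 1798 genes rose and 1959 fell of 18038 tested). In beta cells it was 1, 2 by DESeq2 and with the beta libraries alone, and 1 to 2 with 1 library left out. In delta cells it was 3, and 0 with date as a term, where no date held both treatments. On average it was 3, and 5 without the filter. Over all genes, 163 rose and 6 fell in alpha cells in the main fit (of 17338), and 990 and 446 without the filter (of 32335). With the alpha libraries alone these were 123 and 3 (of 15174). In beta cells 183 rose and 1 fell, 218 and 3 by DESeq2 (of 17334) and 201 and 3 with the beta libraries alone (of 14231). In delta cells 209 rose and 32 fell, and 83 and 26 with date as a term. For the average 387 rose and 116 fell, and 664 and 458 without the filter. Counted over the 3 comparisons of responses, the calls of the genes followed here were 0, 1 by DESeq2 and 3 without the filter (Csf1 and Icam1). They were 0 to 1 with 1 library left out (1 without alpha IFNγ 2, Csf1). Except for the main fit, calls over all genes for the responses are not given here.

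Of the reversed values, 1 was of a comparison that had passed, Icam1 in IFNγ-treated delta minus beta cells. With date as a term, Icam1 was -1.20 in alpha cells, -3.13 in delta cells, -1.84 on average and -1.21 for IFNγ-treated delta minus beta cells, and Cx3cl1 in beta cells was -0.069. With the 2 shared dates alone Icam1 in alpha cells was -1.15, and by limma-voom Icam1 in beta cells was 0.64. With 1 library left out, Icam1 ran from -1.42 to 3.10 in alpha and from -1.10 to 1.53 in beta cells, and Cx3cl1 from -0.14 to 0.24 in beta cells. The causes were not tested.

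The replicate block within cell type changed the number of calls between IFNγ-treated cell types from 6 to 3, and left the numbers for the IFNγ changes as they were. It removed the calls of Cxcl10 for IFNγ-treated delta against alpha (-1.34, adjusted p = 0.191), of Cx3cl1 (1.15, adjusted p = 0.0877) and Icam1 (4.47, adjusted p = 0.0555) for IFNγ-treated delta against beta, and of Csf1 for control beta against alpha cells (0.71, adjusted p = 0.258, edgeR). The labels share only numbers across groups, and not every same-numbered pair deviated together. DESeq2 gave no adjusted p for Icam1. Genes with under about 1 CPM are limited by depth, and for them a missed call is not a sign of no change.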

Other observations

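Some genes of the lists had IFNγ libraries that lay above their controls without passing the test. Of all tested genes, called or not, 6.49% in beta and 7.71% in delta cells had all IFNγ libraries above the controls. Il1b, which encodes interleukin-1 beta, stood at 2.99, 3.04 and 3.04 CPM in beta controls and 8.35, 8.18 and 6.88 CPM in IFNγ-treated beta cells (a log2 change of 1.36, SE 0.69, adjusted p = 1, edgeR), and at most 1.26 CPM in every alpha and delta library. Vcam1, another adhesion gene, stood at 0.382, 0 and 0.623 CPM in delta controls and 1.39, 1.91 and 1.39 CPM in IFNγ-treated delta cells (2.16, SE 0.92, adjusted p = 0.372, edgeR). Ccl28, a mucosal chemokine gene, did not follow this pattern. It was at 24.5 to 39.6 CPM in beta controls, 25.19 to 38.82 CPM in delta controls and 0.855 to 3.48 CPM in alpha controls. After IFNγ its beta libraries, at 19.36, 18.85 and 22.96 CPM, lay below the beta controls and the change was not called (-0.60, SE 0.43). In alpha and delta cells its IFNγ libraries overlapped the controls. These genes were chosen after their values were seen.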
